A study of Mus musculus with 9 samples.

Results

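The selenoproteins of the endoplasmic reticulum (ER) and its membranes are 7 genes in the mouse, Selenof, Selenoi, Selenok, Selenom, Selenon, Selenos and Selenot. They were taken as every non-control probe whose accession names 1 of these genes, under its present or its older symbol (Sep15, Ept1, Selk, Selm, Sepn1, Vimp and Selt). This gave 10 probes of 39429 on the array and 7 genes of 32451 genes or accessions, with the pairs of probes on Selenok, Selenon and Selenot. All 7 genes passed the filter on dim probes, and 17 other selenoprotein genes were tested beside them.

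The samples were spleens of female BALB/c mice, hybridised to Agilent whole-genome arrays in 3 groups of 3, with 1 array per sample. Mice with Graves' disease on a normal selenium supply are called normal Se GD, mice with the disease on a low supply low Se GD, and mice without the disease on a low supply low Se non-GD. In Graves' disease, autoantibodies to the receptor for thyrotropin drive the thyroid to make too much hormone. The sources used here give neither how the disease was induced nor the age of the mice or the diets' composition. A normal supply without disease was not among the groups, so selenium could be compared in diseased mice only. Whether each sample is another animal is not in the labels, so the p-values speak only to the spread seen between samples, and that spread may be technical.

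Selenoproteins carry selenocysteine, which is inserted at a UGA codon and makes their production depend on selenium. Those of the ER work where secreted and membrane proteins are folded, glycosylated and checked, where misfolded proteins are handed to the cytosol for degradation, and where calcium is stored. Plasma cells and macrophages of the spleen use this compartment heavily, the plasma cells to secrete antibody. Selenoproteins differ in how far their messengers fall when selenium is scarce, and that of Gpx1, a glutathione peroxidase, is among the most sensitive.

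Signals are given as log2 of the background-subtracted intensity minus the 75th percentile of the same array, so that 0 is the level of a fairly bright spot and negative values are below it. Between 72.6% and 82.6% of non-control spots were well above background on 8 arrays, against 58.4% on normal Se GD replicate 3. By scan time in the file headers, scan 1 took low Se GD replicate 1 together with every low Se non-GD array. Scan 2 took normal Se GD replicates 1 and 2 beside low Se GD replicates 2 and 3. Scan 3 was normal Se GD replicate 3 alone. For 69.0% of 18541 genes low Se GD replicate 2 took the middle value of its group, and low Se non-GD replicate 3 did so for 78.3%, so results are also given without this pair. Arrays of the same group correlated across genes at 0.963 to 0.995. The markers of B cells, T cells, plasma cells, erythroid cells and stroma that were tested stood well above background on all 9 arrays, as in spleen. In bulk tissue, fewer cells of a type and less RNA per cell cannot be told apart.

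The promoters of the 4 members that passed the test in diseased mice against undiseased mice on low selenium are shown first, because Selenos and Selenok are known in human cells as genes induced by ER stress, the state in which unfolded proteins build up in this compartment. Each is the 250 bases before the annotated start site, from RefSeq (GRCm38.p6). Capitals mark CCAAT and CCACG on either strand (ATTGG and CGTGG on the strand printed). CCAAT and CCACG are the pieces of the ER stress element.
Selenos, chr7:66079399-66079648, plus strand: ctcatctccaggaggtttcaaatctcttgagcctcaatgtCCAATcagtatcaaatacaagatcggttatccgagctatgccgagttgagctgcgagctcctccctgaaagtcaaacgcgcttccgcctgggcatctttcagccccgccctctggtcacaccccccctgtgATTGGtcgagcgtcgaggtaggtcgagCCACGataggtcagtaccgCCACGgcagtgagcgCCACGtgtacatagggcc
Selenok, chr14:29968130-29968379, plus strand: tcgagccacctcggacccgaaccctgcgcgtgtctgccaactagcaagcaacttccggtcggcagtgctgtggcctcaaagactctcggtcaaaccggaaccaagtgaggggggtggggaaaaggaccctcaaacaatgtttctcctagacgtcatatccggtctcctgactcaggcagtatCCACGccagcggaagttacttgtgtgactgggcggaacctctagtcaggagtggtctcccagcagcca
Selenom, chr11:3514434-3514683, plus strand: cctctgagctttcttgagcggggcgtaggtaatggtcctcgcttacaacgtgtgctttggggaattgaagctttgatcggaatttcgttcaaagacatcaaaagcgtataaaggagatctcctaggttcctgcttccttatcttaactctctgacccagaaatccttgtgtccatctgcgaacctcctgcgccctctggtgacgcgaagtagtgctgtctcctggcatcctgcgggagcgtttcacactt
Selenoi, chr5:30232331-30232580, plus strand: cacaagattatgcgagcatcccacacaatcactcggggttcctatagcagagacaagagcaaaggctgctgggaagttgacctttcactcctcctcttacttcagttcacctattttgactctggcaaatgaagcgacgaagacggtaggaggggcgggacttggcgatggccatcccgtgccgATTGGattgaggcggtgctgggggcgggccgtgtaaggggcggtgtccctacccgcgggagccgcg
The Selenos promoter held 2 copies of CCAAT and 3 of CCACG, and 2.13% of 32851 mouse promoters of this length held 3 or more copies of CCACG. The Selenok promoter held 1 CCACG, the Selenoi promoter 1 CCAAT, and the Selenom promoter neither. The complete ER stress element, CCAAT and CCACG with 9 bases between them, was found in 0.113% of all promoters, its second form, ATTGG and CCACG with 1 base between them, in 0.0304%, and the unfolded protein response element TGACGTGG in 0.563%, searched on both strands. None of these 3 full motifs was found in the window of any of the 7 members. CCAAT alone was in 33.8% and CCACG alone in 28.3% of promoters. These matches describe the letters in the window only.

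In the spleens of diseased mice on low selenium, Selenoi, Selenok and Selenom rose and Selenos fell against undiseased mice on the same supply. The fitted change was higher for the remaining members too, but Selenof, Selenon and the brighter probe of Selenot did not pass the test. The call rule was an adjusted p under 0.05 in limma, adjusted over all 26325 genes. Thus 4 of 7 members were called, where 24.9% of all genes were (12.8% higher and 12.2% lower), and 6 of their 10 probes, where 25.1% of all probes were. The groups did not overlap for 5 of 7, where they did not for 53% of all genes. The median log2 fold change was 0.34 over the members and 0.08 over all genes.

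With normal against low selenium in diseased mice, 0 of 7 members and 0 of 10 of their probes passed in limma, where 1.27% of all genes and 2.18% of all probes did. At an unadjusted p under 0.05 there were 2 members, Selenos and Selenom, where 19.4% of all genes reached it, and 3 probes, where 21% of all probes did. The groups did not overlap for these 2 of 7 members, where they did not for 29.4% of all genes. The median log2 fold change was 0.05 over the members and 0.00 over all genes. In normal Se GD versus low Se non-GD spleens, which differ in both disease and supply, Selenoi, Selenok, Selenom and Selenot rose, 4 of 7, where 32.3% of all genes were called and 18.9% rose. Of their probes 6 of 10 were called, where 33.5% of all probes were. The groups did not overlap for 5 of 7 members, where they did not for 49.1% of all genes, and the median was 0.40 over the members and 0.06 over all genes. Each group enters 2 of the 3 comparisons, so these share samples. Without normal Se GD replicate 3, which had the fewest spots above background, 5, 0 and 5 of 7 members were called in the order given, while the all-gene counts were 10787 in place of 6556, 1076 in place of 334 and 11538 in place of 8514, so calls grew over the whole array. Without low Se GD replicate 2 and low Se non-GD replicate 3 together, 0, 0 and 1 were called, and the all-gene count of the first comparison was 269 in place of 6556. Within the scan that held both groups, 0 of 7 were called in low Se GD versus low Se non-GD, where 940 of all genes were.

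**Figure D1:**
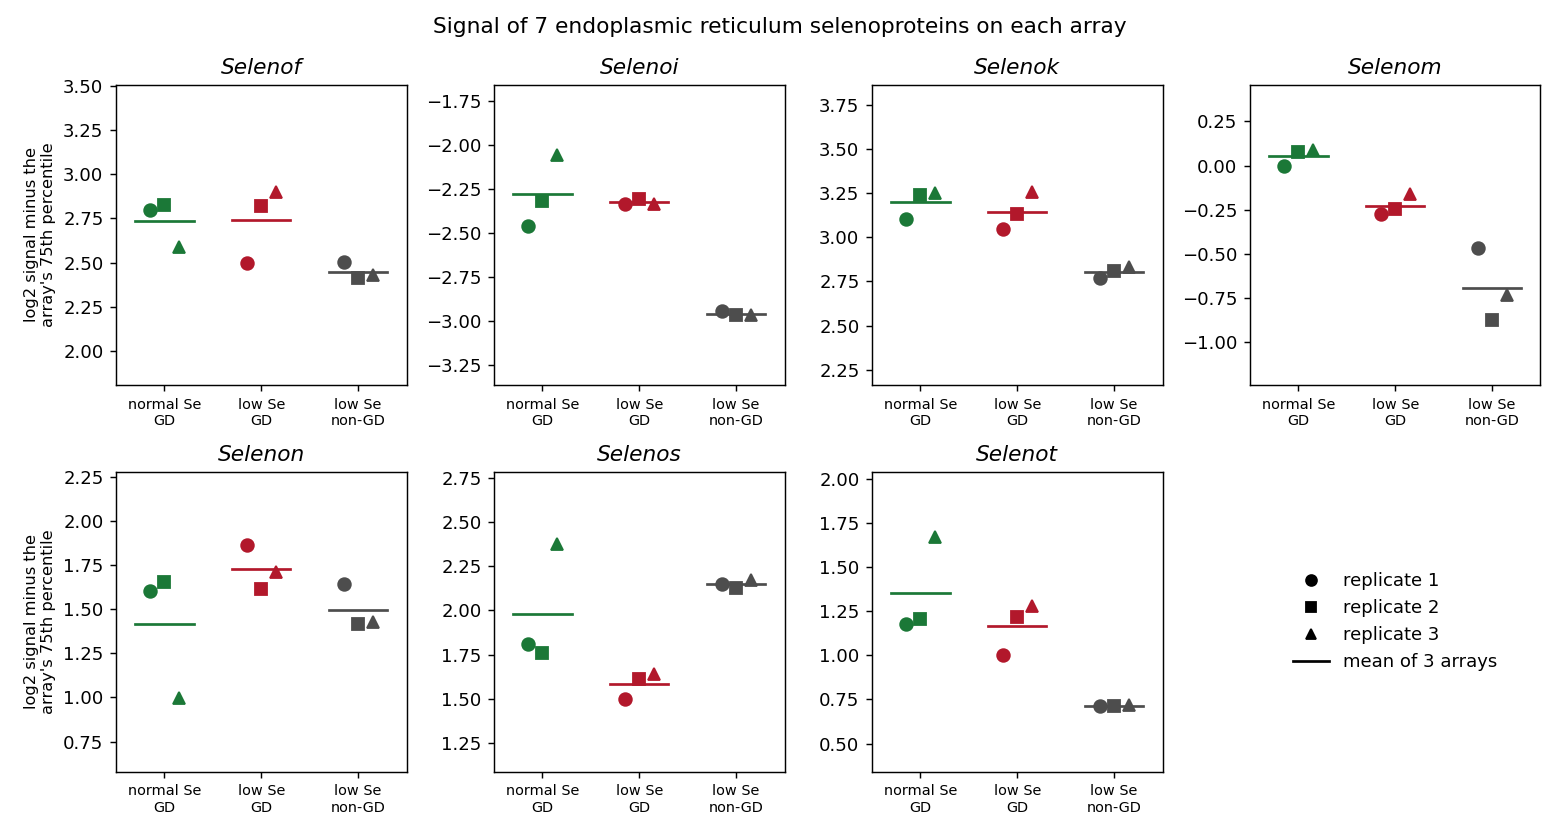
Log2 signal relative to the 75th percentile of each array (vertical axes, each with its own position and the same span) of the 7 selenoproteins on each array, with replicates as symbols and the mean of 3 arrays as a line. Selenoi, Selenok, Selenom and Selenot lie higher in all 6 arrays of diseased mice than in the 3 low Se non-GD arrays, while Selenos lies lowest in low Se GD.

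Selenoi is the ethanolamine phosphotransferase that joins ethanolamine to diacylglycerol and so makes phosphatidylethanolamine, a main membrane lipid. Its log2 signal was -2.46, -2.32 and -2.06 in normal Se GD spleens, -2.34, -2.31 and -2.34 in low Se GD spleens, and -2.94, -2.97 and -2.97 in low Se non-GD spleens. All 6 diseased samples lay above all 3 undiseased ones, and the diseased groups overlapped. In low Se GD versus low Se non-GD it rose by 0.63 on the log2 scale (SE 0.11, adjusted p = 0.00668), and 25.3% of all genes had a larger change of either sign. The rise was 0.68 in normal Se GD versus low Se non-GD (SE 0.11, adjusted p = 0.0037). Between the diseased groups it differed by 0.05 (95% interval -0.21 to 0.31, adjusted p = 0.844). The probe is dim, and with normexp background correction the change shrank to 0.19 in low Se GD (adjusted p = 0.331) and 0.33 in normal Se GD (adjusted p = 0.157), both against low Se non-GD. Over all alternatives the adjusted p ranged between 0.000825 and 0.331 for low Se GD and between 0.0017 and 0.157 for normal Se GD.

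Of 13 other genes of phosphatidylethanolamine and phosphatidylcholine synthesis, 3 rose and 0 fell in low Se GD versus low Se non-GD, with a median of 0.26. This share is near the 24.9% of all genes called there, so the list did not stand out. Those that rose were Chpt1, which makes phosphatidylcholine from diacylglycerol (1.09, SE 0.20, adjusted p = 0.00687), Pcyt1a, the rate-limiting enzyme of that pathway (0.92, SE 0.22, adjusted p = 0.0215), and Pisd, which makes phosphatidylethanolamine in mitochondria (0.40, SE 0.12, adjusted p = 0.0419). Of the 13, 4 rose and 0 fell in normal Se GD versus low Se non-GD, again near the 32.3% of all genes. Etnk1, the kinase of the first step towards the substrate of Selenoi, rose there by 1.31 (SE 0.19, adjusted p = 0.00232), Pisd by 0.71 (SE 0.12, adjusted p = 0.00371), and Chkb, a choline kinase, by 0.45 (SE 0.13, adjusted p = 0.0354). Pcyt2, the enzyme that makes the direct substrate of Selenoi, had log2 fold changes of 0.06 in both, with adjusted p of 0.731 and 0.713. Chka, a choline and ethanolamine kinase, was the 1 gene of 13 that rose in normal Se GD versus low Se GD (0.51, SE 0.09, adjusted p = 0.0499).

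Selenok is a small ER membrane protein of immune cells that partners the acyltransferase Zdhhc6 in protein palmitoylation and binds Derlins of the degradation machinery. Its brighter probe read 3.11, 3.24 and 3.25 in normal Se GD spleens, 3.05, 3.13 and 3.26 in low Se GD spleens, and 2.77, 2.81 and 2.83 in low Se non-GD spleens. The second probe read 0.77, 0.88 and 1.03 in normal Se GD spleens, 0.76, 0.90 and 0.98 in low Se GD spleens, and 0.51, 0.56 and 0.53 in low Se non-GD spleens. On both probes every diseased sample lay above every undiseased one. In low Se GD versus low Se non-GD Selenok rose by 0.34 (SE 0.09, adjusted p = 0.0327), and its second probe by 0.34 (SE 0.10, adjusted p = 0.0457 over all 31868 probes). Normal Se GD versus low Se non-GD gave a rise of 0.40 (SE 0.09, adjusted p = 0.0152) and on the second probe 0.36 (SE 0.10, adjusted p = 0.0302). The calls of the second probe did not hold in 13 of 20 alternatives for low Se GD and 9 of 19 for normal Se GD. With scan as a fixed block its change in normal Se GD versus low Se non-GD was 0.11 (adjusted p = 0.503). Between the diseased groups Selenok differed by 0.05 (95% interval -0.17 to 0.27, adjusted p = 0.799).

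The Selenok call of low Se GD versus low Se non-GD did not hold in 12 of 21 alternatives, with adjusted p between 0.0144 and 0.262 over all 21 and changes between 0.24 and 0.39. It was lost when low Se GD replicate 2 (adjusted p = 0.108) or 3 (0.105) was left out, when low Se non-GD replicate 1 (0.0764), 2 (0.0814) or 3 (0.0990) was, or when normal Se GD replicate 2 was left out (0.0527). With scan as a fixed block it was 0.24 (adjusted p = 0.114), as it was within the scan that held both groups (adjusted p = 0.189). For normal Se GD versus low Se non-GD the call did not hold in 5 of 20 alternatives, with adjusted p between 0.00476 and 0.255 over all 20. No scan held both of these groups. With scan as a fixed block the change was 0.22 (adjusted p = 0.255) and as a random block 0.28 (adjusted p = 0.123). Without low Se GD replicate 2 and low Se non-GD replicate 3 together it was 0.41 (adjusted p = 0.12). The call was also lost without low Se non-GD replicate 3 alone (adjusted p = 0.0546) or normal Se GD replicate 2 (0.0511).

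Of the 5 palmitoylation partners and substrates of Selenok, 2 rose and 0 fell against low Se non-GD in each diseased group. The all-gene shares called were 24.9% for the low selenium diseased group and 32.3% for the normal selenium one. A list of 5 genes is too short to be told apart from these shares. Cd36, a fatty acid receptor of macrophages whose palmitoylation depends on Selenok, rose by 1.59 in low Se GD (SE 0.19, adjusted p = 0.00183) and by 1.67 in normal Se GD (SE 0.19, adjusted p = 0.00117). Zdhhc16, another acyltransferase, rose by 0.35 (SE 0.09, adjusted p = 0.0260) in low Se GD and by 0.36 (SE 0.09, adjusted p = 0.0178) in normal Se GD. Zdhhc6 itself had log2 fold changes of -0.03 (adjusted p = 0.919) and -0.08 (adjusted p = 0.773). The change of Cd36 went with that of the macrophage markers given below, and their part in it was not tested.

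Selenos anchors the p97 ATPase, encoded by Vcp, at the ER membrane and so helps to draw misfolded proteins out for degradation. It read 1.81, 1.76 and 2.38 in normal Se GD spleens, 1.498, 1.61 and 1.64 in low Se GD spleens, and 2.15, 2.13 and 2.17 in low Se non-GD spleens. Every low Se GD sample lay below every sample of the other groups, while normal Se GD replicate 3 stood above all low Se non-GD samples and the other normal Se GD samples below them. In low Se GD versus low Se non-GD it fell by 0.57 on the log2 scale (SE 0.16, adjusted p = 0.0392), and 12.2% of all genes fell in this comparison. It was the 1 member with a lower fitted value there. It was 0.40 higher in normal Se GD versus low Se GD (95% interval 0.02 to 0.78, adjusted p = 0.238). That value was 0.20 without normal Se GD replicate 3 and 0.16 within the scan that held both groups. Over 21 alternatives it lay between 0.16 and 0.51. Selenos differed by -0.17 in normal Se GD versus low Se non-GD (SE 0.16, adjusted p = 0.473).

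The fall of Selenos in low Se GD did not pass in 11 of 21 alternatives, while the change kept within -0.65 and -0.52 and the adjusted p ranged between 0.00135 and 0.257. It was lost without any 1 of the 3 low Se GD arrays (adjusted p = 0.0971, 0.107 and 0.0851 for replicates 1, 2 and 3), without any 1 of the 3 low Se non-GD arrays (0.0818, 0.0934 and 0.117) or when normal Se GD replicate 1 was left out (0.0510). Within the scan that held both groups the value was -0.65 (adjusted p = 0.0584). Without normal Se GD replicate 3, the array with the fewest spots above background, Selenos also fell in normal Se GD versus low Se non-GD, by 0.37 (adjusted p = 0.00815, over a range of 0.00815 to 0.832). With scan as a fixed block it fell there by 0.49 (adjusted p = 0.0262). That fit also sets normal Se GD replicate 3 aside, as the only array of its scan. No scan held both of these groups, so the value was linked through low Se GD replicate 1.

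Among 29 other genes of ER-associated degradation, 6 rose and 2 fell in low Se GD versus low Se non-GD, with a median of 0.25, where 24.9% of all genes were called. Vcp fell with Selenos, by 0.39 (SE 0.12, adjusted p = 0.0483), and lost this call in all but 2 of the 9 fits that left out 1 array (adjusted p up to 0.144). Derl3, a Derlin channel protein of secretory cells, rose by 0.72 (SE 0.16, adjusted p = 0.0142), and Aup1, a lipid droplet protein that recruits a ubiquitin-conjugating enzyme, by 0.50 (SE 0.11, adjusted p = 0.0146). The ubiquitin ligase Syvn1 and its partner Sel1l had 0.33 (adjusted p = 0.218) and 0.18 (adjusted p = 0.300).

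Of the 29, 9 rose and 3 fell in normal Se GD versus low Se non-GD, where 32.3% of all genes were called. Aup1 rose by 0.68 (SE 0.11, adjusted p = 0.00323), Derl3 by 0.72 (SE 0.16, adjusted p = 0.0107) and Edem1, a lectin that picks out misfolded glycoproteins, by 0.59 (SE 0.13, adjusted p = 0.0125). Vcp fell by 0.51 (SE 0.12, adjusted p = 0.0139), and Erlec1, another lectin of this pathway, by 0.81 (SE 0.10, adjusted p = 0.00154). Erlec1 was also the 1 gene of 29 that changed in normal Se GD versus low Se GD, where it fell by 0.62 (SE 0.10, adjusted p = 0.0448). Dnajb12, a co-chaperone of the ER membrane, fell by 3.01 in normal Se GD and fell by 2.61 in low Se GD, the largest changes of the list. Its signal lay between 0.35 and 2.01 in normal Se GD, 1.31 and 2.01 in low Se GD, and 3.69 and 4.81 in low Se non-GD, and that of the E1A spike-in control a107 between 0.87 and 2.37, 1.01 and 2.51, and 4.72 and 5.85 in the same groups. The part of this control in the fall of Dnajb12 was not tested.

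Selenot, a thioredoxin-like protein that has been found in the oligosaccharyltransferase, had 2 probes that gave different calls. The brighter probe read 1.18, 1.21 and 1.67 in normal Se GD spleens, 1.003, 1.22 and 1.28 in low Se GD spleens, and 0.71, 0.71 and 0.72 in low Se non-GD spleens. The second read -2.79, -2.55 and -2.57 in normal Se GD spleens, -2.98, -2.84 and -2.84 in low Se GD spleens, and -3.34, -3.51 and -3.49 in low Se non-GD spleens. On both probes all diseased samples lay above all undiseased ones, and normal Se GD replicate 3 was the highest on the brighter probe only. In low Se GD versus low Se non-GD the brighter probe was 0.45 higher (SE 0.15, adjusted p = 0.0614) and the second rose by 0.56 (SE 0.11, adjusted p = 0.00813). With both probes averaged Selenot rose by 0.51 (adjusted p = 0.0181), and by 0.45 when normal Se GD replicate 3 was left out (adjusted p = 0.00631, over a range of 0.00631 to 0.350 for all 21 alternatives). With scan as a fixed block the change of the brighter probe was smaller but passed, at 0.29 (adjusted p = 0.0354), and within the scan that held both groups it was 0.29 (adjusted p = 0.137).

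In normal Se GD versus low Se non-GD Selenot rose by 0.64 on the brighter probe (SE 0.15, adjusted p = 0.0141) and 0.81 on the second (SE 0.11, adjusted p = 0.00154). With scan as a fixed block the value of the brighter probe was 0.24 (adjusted p = 0.134), and with low Se non-GD replicate 3 left out it was 0.64 (adjusted p = 0.0504), over a range of 0.00336 to 0.134 for 20 alternatives. Between the diseased groups Selenot differed by 0.19 (95% interval -0.16 to 0.53, adjusted p = 0.540). With normexp correction the second probe, which is dim, was 0.04 higher in low Se GD than in low Se non-GD (adjusted p = 0.833, over a range of 0.00429 to 0.833).

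The other 12 subunits of the oligosaccharyltransferase, which attaches glycans to proteins entering the ER, were mostly higher in diseased spleens. In low Se GD versus low Se non-GD 7 of 12 rose and 0 fell, with a median of 0.39, and in normal Se GD versus low Se non-GD 9 of 12 rose and 1 fell, with a median of 0.60. Of all genes, 24.9% were called in low Se GD (12.8% higher) and 32.3% in normal Se GD (18.9% higher). Ddost, a subunit shared by both forms of the complex, rose by 0.68 in low Se GD (SE 0.14, adjusted p = 0.0124) and by 1.099 in normal Se GD (SE 0.14, adjusted p = 0.00160). In low Se GD the subunits Ost4 (0.55, SE 0.15, adjusted p = 0.0358) and Magt1 (0.53, SE 0.14, adjusted p = 0.0277) rose with it. The catalytic subunit Stt3a rose by 1.14 (SE 0.16, adjusted p = 0.00194) and Ostc by 1.05 (SE 0.12, adjusted p = 0.00117) in normal Se GD. Rpn2 fell there by 0.29 (SE 0.08, adjusted p = 0.0238), and in the authors' deposited table of log2 values its value was 0.02 (adjusted p = 0.913). Between the diseased groups 0 of 12 were called in limma, with a median of 0.28.

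**Figure D2:**
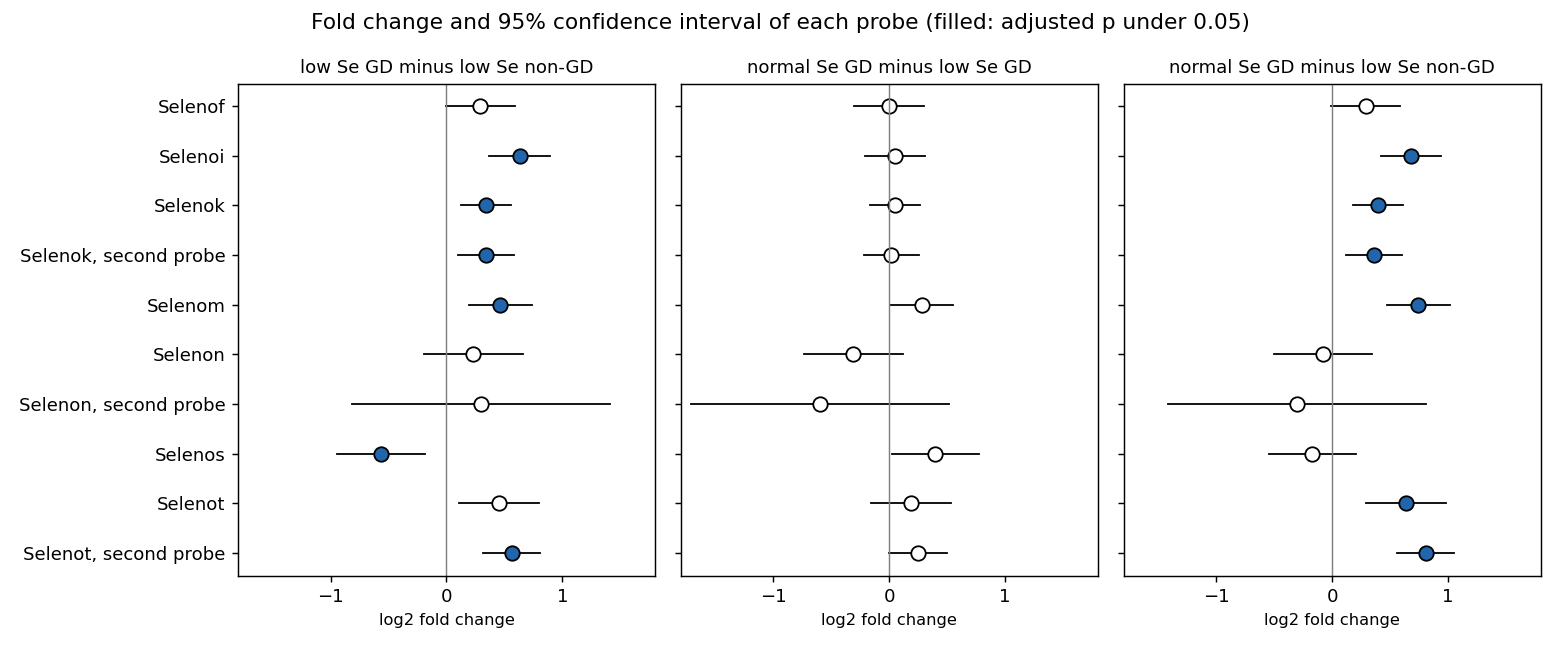
Log2 fold change (horizontal axes) of each of the 10 probes in the 3 comparisons, with 95% intervals from limma and filled points for an adjusted p under 0.05. The probes of Selenoi, Selenok, Selenom and Selenot lie above 0 against low Se non-GD, and no point is filled in normal Se GD minus low Se GD.

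Selenom is a thioredoxin-like protein of the ER lumen, studied mostly in neurons, where it bears on calcium. It read -0.00, 0.07 and 0.09 in normal Se GD spleens, -0.28, -0.24 and -0.16 in low Se GD spleens, and -0.47, -0.87 and -0.73 in low Se non-GD spleens. The 3 groups did not overlap, with normal Se GD the highest and low Se non-GD the lowest. It rose by 0.47 in low Se GD versus low Se non-GD (SE 0.12, adjusted p = 0.0247), and by 0.75 in normal Se GD versus low Se non-GD (SE 0.12, adjusted p = 0.00305). It was 0.28 higher in normal Se GD versus low Se GD (95% interval 0.01 to 0.55, adjusted p = 0.248), with all 3 normal Se GD samples above all 3 low Se GD samples. That value kept its sign in all 21 alternatives, between 0.20 and 0.31, and passed in 0 of them.

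The Selenom call in low Se GD versus low Se non-GD did not hold in 8 of 21 alternatives (adjusted p between 0.0102 and 0.262). It was lost when low Se GD replicate 2 (adjusted p = 0.0816) or 3 (0.0803) or low Se non-GD replicate 2 (0.0738) or 3 (0.0940) was left out, and within the scan that held both groups it was 0.42 (adjusted p = 0.262). The call in normal Se GD versus low Se non-GD was lost with scan as a fixed block only, at 0.65 (adjusted p = 0.0851, over a range of 0.00150 to 0.0851 for 20 alternatives).

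Selenon is an ER membrane protein that senses luminal calcium and tunes its uptake, and its loss causes a muscle disease in humans. Its brighter probe read 1.60, 1.65 and 0.997 in normal Se GD spleens, 1.86, 1.61 and 1.71 in low Se GD spleens, and 1.64, 1.42 and 1.43 in low Se non-GD spleens. Normal Se GD replicate 3 stood below all other samples, and the groups overlapped. Its changes were 0.23 in low Se GD versus low Se non-GD (95% interval -0.20 to 0.66, adjusted p = 0.403), -0.31 in normal Se GD versus low Se GD (95% interval -0.74 to 0.12, adjusted p = 0.405) and -0.08 in normal Se GD versus low Se non-GD (95% interval -0.51 to 0.35, adjusted p = 0.781). Without normal Se GD replicate 3 the last was 0.13 in place of -0.08. The second probe was dim, between -3.71 and -2.99 on 8 arrays and -5.03 on normal Se GD replicate 3, where it was not well above background.

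Selenof binds the glycoprotein folding sensor Uggt1 in the ER lumen. It read 2.80, 2.82 and 2.59 in normal Se GD spleens, 2.496, 2.82 and 2.90 in low Se GD spleens, and 2.504, 2.41 and 2.43 in low Se non-GD spleens. Low Se GD replicate 1 lay among the undiseased samples and the other diseased samples above them. Its changes were 0.29 in low Se GD (95% interval -0.01 to 0.59, adjusted p = 0.142) and 0.29 in normal Se GD (95% interval -0.01 to 0.59, adjusted p = 0.129), both against low Se non-GD, and -0.00 between the diseased groups (95% interval -0.30 to 0.30, adjusted p = 0.991). Low Se GD replicate 1 shared its scan with the 3 low Se non-GD arrays. Within that scan the low Se GD value was 0.05, and without low Se GD replicate 1 it was 0.42 (adjusted p = 0.0396, over a range of 0.0396 to 0.774).

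Among 26 genes of ER folding and glycoprotein quality control, 8 rose and 0 fell in low Se GD, and 9 rose and 1 fell in normal Se GD, both against low Se non-GD, with medians of 0.33 and 0.40. The all-gene shares called there were 24.9% and 32.3%, and the medians of all genes 0.08 and 0.06. Pdia4, a disulfide isomerase, rose by 1.32 in low Se GD (SE 0.19, adjusted p = 0.00294) and by 1.89 in normal Se GD (SE 0.19, adjusted p = 0.000710). Calr, the lectin chaperone calreticulin, rose by 1.19 in low Se GD (SE 0.10, adjusted p = 0.000492) and by 1.26 in the normal Se GD spleens (SE 0.10, adjusted p = 0.000335). The luminal chaperone Erp29 fell by 0.38 in normal Se GD (SE 0.12, adjusted p = 0.0455), and with its probes averaged it was 0.03. Uggt1 itself had -0.13 in both, with adjusted p of 0.430 and 0.425, and the chaperone Hspa5 had 0.12 (adjusted p = 0.50) and 0.04 (adjusted p = 0.809). Sdf2l1, an ER stress-induced cofactor of Hspa5, read 0.42, 0.48 and 0.60 in normal Se GD spleens, -0.16, -0.27 and -0.16 in low Se GD spleens, and -0.96, -1.13 and -1.13 in low Se non-GD spleens. It rose in all 3 comparisons, by 0.69 in normal Se GD versus low Se GD (SE 0.10, adjusted p = 0.0385), where Ero1b, an oxidase of disulfide formation, also rose (0.65, SE 0.11, adjusted p = 0.0441).

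Of 18 regulators of the unfolded protein response, the programme that senses misfolded protein, 8 rose and 2 fell in low Se GD, and 4 rose and 2 fell in normal Se GD, against low Se non-GD. Chac1, an enzyme that breaks down glutathione, rose by 1.97 in low Se GD (SE 0.29, adjusted p = 0.00325). Creb3l2, a transcription factor held in the ER membrane, rose by 1.26 in low Se GD (SE 0.19, adjusted p = 0.00349) and by 1.02 in normal Se GD (SE 0.19, adjusted p = 0.00554). Xbp1, the transcription factor that drives ER expansion, rose by 0.74 in low Se GD (SE 0.14, adjusted p = 0.00722) and by 1.11 in normal Se GD (SE 0.14, adjusted p = 0.00134). Dnajb9, a co-chaperone under its control, rose by 0.95 in low Se GD (SE 0.10, adjusted p = 0.00108) and by 0.86 in normal Se GD (SE 0.10, adjusted p = 0.00110). Ddit3, the death-related factor CHOP, fell by 0.46 in low Se GD (SE 0.12, adjusted p = 0.0260) and fell by 0.42 in normal Se GD (SE 0.12, adjusted p = 0.0296). Mbtps2, a protease that releases membrane-bound transcription factors, fell by 0.75 in low Se GD (SE 0.22, adjusted p = 0.0412). Its signal was dim, between -5.80 and -4.53, and not well above background on low Se GD replicate 1 and normal Se GD replicate 3. The call of Mbtps2 held in 3 of 20 alternatives. Ppp1r15a, which ends the translation block of the stress response, fell by 0.59 in normal Se GD (SE 0.17, adjusted p = 0.0344). Between the diseased groups, where 1.27% of all genes were called, 2 of 18 fell and 0 rose in normal Se GD. These were Ppp1r15a (-1.06, SE 0.17, adjusted p = 0.0442), and Trib3, a target of Ddit3 (-0.69, SE 0.11, adjusted p = 0.0438).

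Of 17 genes of ER calcium handling, 2 rose and 2 fell in low Se GD, and 4 rose and 1 fell in normal Se GD, against low Se non-GD, with medians of 0.01 and 0.15. Both shares are near those of all genes. Stim2, a sensor of stored calcium, fell by 1.48 in low Se GD (SE 0.22, adjusted p = 0.00325) and fell by 1.18 in normal Se GD (SE 0.22, adjusted p = 0.00553), while its relative Stim1 rose by 0.59 in low Se GD (SE 0.17, adjusted p = 0.0358). Tmco1, a calcium leak channel of the ER, rose by 0.52 in low Se GD (SE 0.09, adjusted p = 0.00689) and by 0.51 in normal Se GD (SE 0.09, adjusted p = 0.00564). Calumenin (Calu), a calcium-binding protein of the secretory pathway, rose by 0.81 (SE 0.17, adjusted p = 0.0101) and Tmbim6, a protective calcium channel-like protein of the ER membrane, by 0.69 (SE 0.16, adjusted p = 0.0133) in normal Se GD. The calcium release channel Ryr1 fell by 0.41 in low Se GD (SE 0.10, adjusted p = 0.0183). The calcium pump Atp2a2, a partner of Selenon, had 0.31 (adjusted p = 0.248) and -0.07 (adjusted p = 0.794), and 0 of 17 were called in normal Se GD versus low Se GD in limma.

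**Figure D3:**
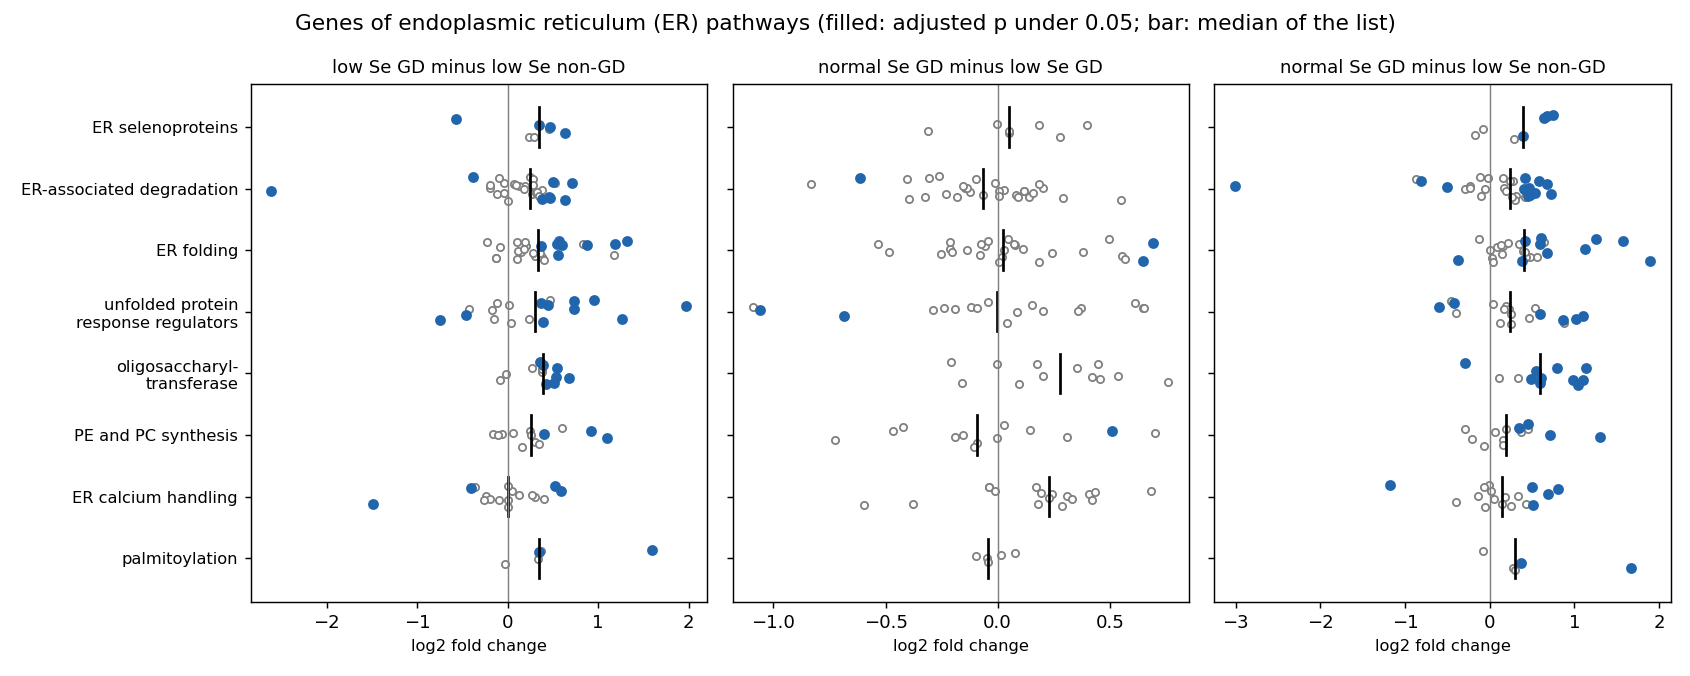
Log2 fold change (horizontal axes) of each tested gene in the ER lists, by comparison, with filled points for an adjusted p under 0.05 and a bar at each list's median. Against low Se non-GD the bars of all lists but ER calcium handling lie between 0.19 and 0.60, and in normal Se GD minus low Se GD few points are filled.

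The calls on the lists also turned on single arrays. In normal Se GD versus low Se GD, the 10 genes that the naming rule took from all lists, the cell markers below included, kept their call in 1 of the 9 fits that left out 1 array, that without normal Se GD replicate 3, and their adjusted p reached 0.213 to 0.215 in the others. Set against low Se non-GD, 21 of 47 genes taken by the same rule kept it in all 9 such fits for low Se GD and 33 of 51 for normal Se GD.

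Markers of the spleen's own cell types moved beside the selenoproteins. Against low Se non-GD, 24.9% of all genes were called in low Se GD (12.8% higher) and 32.3% in normal Se GD (18.9% higher). Between the diseased groups 1.27% were. Of 11 macrophage markers 8 rose and 0 fell in low Se GD, and 10 rose and 0 fell in normal Se GD, against low Se non-GD. Their summed signal, in units of the array's 75th percentile, was 96.98 to 118.9 in normal Se GD, 87.81 to 104.3 in low Se GD and 43.38 to 60.29 in low Se non-GD. Of 12 plasma cell markers 4 rose and 0 fell in normal Se GD and 2 rose and 2 fell in low Se GD. Their sums were 69.22 to 75.24 for normal Se GD, 58.27 to 64.25 for low Se GD and 49.18 to 52.55 for low Se non-GD. Sums weigh bright markers most, and Jchain had mean log2 signals of 5.19, 4.84 and 4.19 in the same order. The median change of the 12 was -0.12 for low Se GD, with 6 of 12 fitted higher. For normal Se GD it was 0.18, with 8 of 12 fitted higher. Thus the sums alone do not show a rise of the list as a whole. Of 12 B cell markers 4 fell and 0 rose in low Se GD, and 2 rose and 2 fell in normal Se GD with a median of 0.00, against low Se non-GD, while 2 rose in normal Se GD versus low Se GD. They summed to 123.8 to 134.8 in normal Se GD, 106.4 to 110.7 in low Se GD and 134.8 to 156.8 in low Se non-GD. Of 11 stroma markers 3 fell in low Se GD, and 3 rose and 1 fell in normal Se GD, with sums of 34.59 to 36.14 in normal Se GD, 25.16 to 28.86 in low Se GD and 35.82 to 36.95 in low Se non-GD. Of 12 erythroid markers 0 passed in limma in any comparison, yet their sums of 119.0 to 142.4 in normal Se GD lay below 189.0 to 248.8 in low Se GD, beside 108.9 to 227.4 in low Se non-GD. Of 11 T cell markers 1 rose in low Se GD, 2 rose in normal Se GD, and their sums of 38.80 to 41.45 in normal Se GD, 37.68 to 42.85 in low Se GD and 29.73 to 48.36 in low Se non-GD overlapped.

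Some markers of tissue outside the spleen differed as well. Those of adipocytes summed to 4.485 to 5.554 in normal Se GD. Their sums were 11.46 to 80.56 in low Se GD and 3.548 to 9.934 in low Se non-GD. Of these 10 markers 5 rose in low Se GD versus low Se non-GD, where 12.8% of all genes rose. Those of pancreas summed to 1.534 to 1.883 for normal Se GD. The sums of low Se GD were 1.284 to 1.413, and those of low Se non-GD 2.776 to 3.108. Of these 8 markers 2, Pnlip and Ins2, fell in both diseased groups, while 1 other rose in the normal Se GD group. The list did not move as a whole, with a median change of -0.02 for low Se GD and 4 of 8 fitted higher. For normal Se GD the median was -0.06 and 3 of 8 were fitted higher, again versus low Se non-GD. Only 4 of 8 were well above background on normal Se GD replicate 3. Pnlip, a digestive lipase, fell by 3.24 in low Se GD (adjusted p = 0.00182) and fell by 3.26 in normal Se GD (adjusted p = 0.00131). Ins2, an insulin gene, fell by 1.61 in low Se GD (adjusted p = 0.00383) and fell by 1.03 in normal Se GD (adjusted p = 0.0156).

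Single markers with the widest changes, all past the adjusted threshold in limma, are given against low Se non-GD unless stated. Among macrophage markers, C1qa rose by 1.46 in low Se GD and by 1.62 in normal Se GD, Adgre1 by 1.37 and 1.49, C1qc by 1.30 in low Se GD and Slc40a1 by 1.40 in normal Se GD. Among plasma cell markers, Sdc1 rose by 0.79 in low Se GD and by 1.19 in normal Se GD and Jchain by 0.65 and 1.002. Sdc1 was dim, with mean log2 signals of -3.43 in low Se GD and -4.22 in low Se non-GD. Over 21 alternatives its change in low Se GD went down to 0.03, with adjusted p up to 0.886. Eaf2 fell by 0.74 (0.14 with its probes averaged) and Cd38 fell by 0.49 in low Se GD, and Slamf7 rose by 0.74 in normal Se GD against either low selenium group. Among B cell markers, Fcer2a fell by 0.96, Cr2 fell by 0.77 and Blk fell by 0.61 in low Se GD, and Fcer2a and Blk rose by 0.94 and 0.64 in normal Se GD versus low Se GD. Fcrla rose by 0.61 and Pax5 by 0.60 in normal Se GD versus low Se non-GD, where Cd22 fell by 0.94 and Cd79b fell by 0.29, though Cd79b was 0.14 in the authors' deposited table and 0.13 with quantile normalization. Among stroma markers, Cxcl13 fell by 0.88 and Ccl19 fell by 0.64 in low Se GD, while in normal Se GD Tcf21 rose by 0.85, Pdgfrb by 0.50 and Nkx2-5 by 0.43 and Pdpn fell by 0.99. The T cell marker Cd28 rose by 0.71 in low Se GD and by 0.84 in normal Se GD, and Tcf7 by 0.54 in normal Se GD. Among adipocyte markers, Fabp4 rose by 3.91, Adipoq by 3.51 and Plin1 by 2.38 in low Se GD. Plin1 was dim, with a mean log2 signal of -6.32 in low Se non-GD. Over 20 alternatives the change of Plin1 went down to 0.21, with adjusted p up to 0.621. Adipoq fell by 5.59 in normal Se GD versus low Se GD, and Pparg rose by 0.71 in normal Se GD. The part of these cell types in the changes of the members was not tested.

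Over the 9 arrays, Selenoi, Selenok and Selenot had like patterns, with Pearson's r of 0.94 for Selenoi and Selenok, 0.94 for Selenoi and Selenot and 0.92 for Selenok and Selenot. Selenon and Selenos ran opposite, at -0.84. These values describe 9 arrays that share the differences between groups and scans. Of 13366 genes with a symbol above background on every array, Tmem258, itself a subunit of the oligosaccharyltransferase, was most like Selenok (0.99), Srp72, of the particle that brings nascent proteins to the ER, most like Selenot (0.995), Dhx33 most like Selenoi (0.99) and Cgrrf1 most like Selenom (0.99). Tmem135 was most like Selenos (0.99), Rad50 most like Selenof (0.99) and Epn3 most like Selenon (0.98). The highest value lay between 0.98 and 0.995 for each member, so no link in function is read from it.

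The 17 other selenoproteins gave 5 that rose and 1 that fell in low Se GD, with a median of 0.27, and 5 that rose and 1 that fell in normal Se GD, with a median of 0.13, both against low Se non-GD. All-gene shares called were 24.9% and 32.3% in these comparisons, in that order. Between the diseased groups 0 of 17 passed in limma, with a median of -0.06, beside 0.05 for the 7 of the ER.

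**Figure D4:**
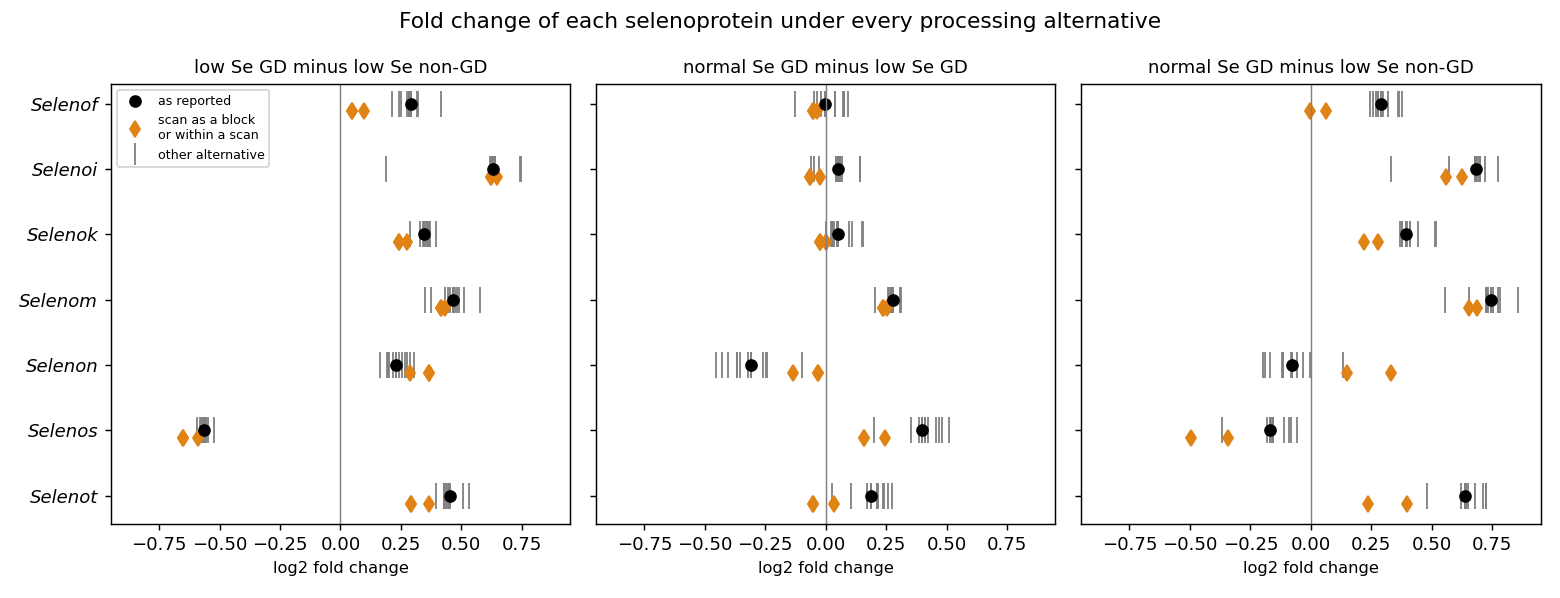
Log2 fold change (horizontal axes) of each of the 7 genes as reported (black), with scan as a block or within a scan (orange) and under the other alternatives (grey bars). Selenoi, Selenok, Selenom and Selenot stay above 0 against low Se non-GD and Selenos stays below 0 in low Se GD, while in normal Se GD minus low Se GD several marks of Selenof, Selenoi, Selenok and Selenot lie on both sides of 0.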

How the data were processed

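Spleen RNA had been labelled and hybridised by the 1-colour protocol, per the labels' protocols. The authors deposited a linear intensity per spot for each of the 9 arrays, made with Agilent Feature Extraction 11.0.1.1 with background subtraction and no scaling between arrays, per the file headers. The 0 or 1 marks of bright, saturated and outlying spots are also deposited there, and no spot was saturated. A deposited table of log2 values, of whose making the sources used here say nothing, served as an alternative, and its low Se non-GD columns matched other arrays of that group better than their own. Groups and replicate numbers came from the labels.

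Processed signals were taken as log2, and the 75th percentile of the 43020 non-control spots of each array was subtracted. Spots of a probe were averaged, without marked ones. A gene was represented by its probe with the highest mean. Accessions were named through a RefSeq GRCm38.p6 table, which matched 27234 of 39429 probes. Genes well above background on fewer than 3 arrays were left out (6078), as were 48 with a missing value. Comparisons used limma 3.58.1 in R 4.3.3 (2-sided, 1 fit over the 9 arrays with 6 residual degrees of freedom), with Benjamini-Hochberg adjustment over 26325 genes or 31868 probes and a threshold of 0.05. The steps were tested on simulated data. Intervals cover the spread between arrays, whose number limits the precision.

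The members, lists and tests were chosen with earlier results of these data known. From each list the text names up to 3 higher and 3 lower genes per comparison with the largest change among those called with groups that do not overlap, with other selenoproteins as counts and a median only, and for each member the most alike of its 3 most alike genes. A gene that this rule names from the degradation list is not reported here. Pcyt2, Zdhhc6, Syvn1, Sel1l, Uggt1, Hspa5, Atp2a2 and the first Xbp1 value were added as known partners or regulators, after values were seen.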

Additional observations from a re-analysis of the deposited data

How the results depend on the processing

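Taken in the order low Se GD minus low Se non-GD, normal Se GD minus low Se GD and normal Se GD minus low Se non-GD, the 3 comparisons were refitted under up to 21 alternatives, in which normexp used median spot signals. In the first, 4 members were called as reported, 2 with no filter, 1 with a replicate block, 0 within scan and 0 without both in-between arrays, and 1 to 5 with 1 array left out. Their 6 called probes were 3, 2, 0 and 0 in the same order, and 2 to 7. In the third, 4 members and 6 probes became 2 and 2 with scan as a fixed block (Selenoi, and Selenos as a new lower call), 2 and 3 with scan as a random block, and 1 and 3 without both in-between arrays, with 2 to 5 members and 4 to 7 probes when 1 array was left out. No scan held both groups of the third comparison. In the second, 0 members and 0 probes were called under each alternative run. Of all genes, 6556 in the first became 940 within scan, 269 without both in-between arrays and 3448 to 10787 with 1 array left out. The 334 in the second became 3 in the authors' table, 46 with quantile normalization, 1713 and 1939 with scan as a fixed and a random block, 2794 within scan, 1288 for genes above background on all arrays, 0 with no filter, with normexp, with only the 2 groups, with a replicate block and without both in-between arrays, and 0 to 1076 with 1 array left out. The 8514 in the third became 5552 with normexp, 4828 with scan as a fixed block, 3044 without both in-between arrays and 5415 to 11538 with 1 array left out. The cause of these shifts was not tested. Same-numbered arrays correlated between -0.21 and 0.10 in their deviations from group means, and own numbers correlated best in 5 of 18 pairings of an array with another group, so replicate numbers were not read as pairs.

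Signs turned mostly where the change was near 0. In the second comparison Selenof was 0.094 in the authors' table, 0.074 with quantile normalization, 0.038 without both in-between arrays and -0.126 to 0.077 with 1 array left out. Selenoi was -0.027 in the authors' table, -0.046 with quantile normalization, -0.066 with scan as a fixed block and within scan, -0.024 with scan as a random block and -0.061 to 0.140 with 1 array left out. With scan as a fixed block and within scan Selenok was -0.025, its second probe -0.11 and Selenot -0.054. The second Selenok probe was -0.060 with scan as a random block and -0.049 to 0.080 with 1 array left out. In the third comparison, scan as a fixed block gave -0.0027 for Selenof, 0.33 for Selenon and 0.082 for its second probe, scan as a random block gave 0.15 for Selenon, and with 1 array left out Selenon was -0.20 to 0.13 and its second probe -0.66 to 0.34. With normexp the second Selenon probe was -0.13 in the first comparison and 0.088 in the second, where it was -0.96 to 0.042 with 1 array left out. Normexp moved the median of all genes in the first comparison to -0.16, against 0.08 as reported, and in the second to 0.16, against 0.00. Averaging probes gave Eaf2 0.14 in the first comparison and Erp29 0.031 in the third. In the third, Cd79b was 0.14 in the authors' table and 0.13 with quantile normalization, and Rpn2 0.018 in that table. For the genes named from lists, 1601 alternatives kept the call, 603 lost it and 5 turned its sign. Dim probes (Selenoi and the second probes of Selenon and Selenot) are limited by their signal over background.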
